A study of Mus musculus with 161 samples.

Results

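The sites described here are open-chromatin regions that lay inside an intron of a protein-coding gene and far from any gene start, in mouse bone marrow-derived macrophages profiled by ATAC-seq, an assay in which the Tn5 transposase cuts and tags accessible DNA. A site was a member when its midpoint fell within a protein-coding gene, in no annotated exon, and over 5 kb from the start of every annotated gene (mm10, GENCODE M21). There were 54381 such sites among 150203 (36.2%), in 9600 host genes. Of these host genes, 2630 held a single member, the median was 3 and the most was 150. The median member was 386 bp wide and lay 22.1 kb from the nearest gene start, and 15.7% lay in the first intron. For 1385 members more than 1 protein-coding gene had an intron at the midpoint, and the gene with the nearer start was taken as host.

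Open sites of this kind are mostly enhancers, insulators and other elements that act on a promoter at a distance, which need not be that of the gene they lie in. In macrophages the factor PU.1 marks enhancers of the lineage together with C/EBP and RUNX factors, while AP-1, NF-kB, STAT and IRF factors act on such elements after a stimulus. LPS activates NF-kB and AP-1 through Toll-like receptor 4, and IFN-γ signals through the JAK kinases, which together drive the inflammatory M1 state.

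The cells came from the bone marrow of C57BL/6J mice aged 6 to 10 weeks and were grown to day 7 in base medium with horse serum and macrophage colony stimulating factor (MCSF). The 24 h M1 cells were stimulated for 24 h with LPS at 100 ng/mL together with IFN-γ at 25 ng/mL. The M1 → M0 cells received the same stimuli for 24 h, were washed, and were kept in base medium for a further 72 h, to a total of 96 h. The 0 h M0 cells were unstimulated and collected at the start. Each condition had 3 libraries that the labels call biological replicates without naming separate mice or cultures, so p-values measure only the spread between these libraries. No ATAC library of M0 cells at 96 h was analysed here, and none at 24 h. In every ATAC comparison the stimuli or their removal and the time in culture therefore cannot be told apart. Bulk RNA libraries of M0 cells at 24 h and 96 h exist but entered only the estimate of the spread. RNA was compared with 0 h M0 alone, so these RNA comparisons do not separate stimuli and time either. Library totals ran between 1730488 and 7917767 counts in 24 h M1, 6316477 and 8194529 in M1 → M0, and 5004005 and 9354620 in 0 h M0. The shallowest library, 24 h M1 replicate 3, had no count at 21.5% of all sites. Members took between 23.05% and 26% of the counts of each library.

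Sequences centred on the midpoint are printed for some members with large changes, to show what kind of DNA opened or closed (mm10, plus strand, read from the RefSeq copy of the assembly). Capitals mark matches, on either strand, to letters commonly bound by macrophage factors. The letters searched were TGANTCA for AP-1, GAGGAAGT for PU.1, TTGCNNAA for C/EBP, TGTGGTTT for RUNX, TTCCNGGAA for the GAS element of interferon-γ responses, CACGTGAC for the E-box of MITF and TFE factors, GAAA repeated after 2 bases for the ISRE of IRF and STAT complexes, GGGA and TTCC 2 bases apart for NF-kB, and, for CTCF, the letters CCA, AG and GGC each 2 bases apart. Matches could overlap one another and are a description of the letters, not of bound factors.

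Windows of 2 members among the largest gains in 24 h M1 over 0 h M0 read as follows. Of these, only that of Olfr56 holds any of the letters.
Olfr56, chr11:49056436-49056636: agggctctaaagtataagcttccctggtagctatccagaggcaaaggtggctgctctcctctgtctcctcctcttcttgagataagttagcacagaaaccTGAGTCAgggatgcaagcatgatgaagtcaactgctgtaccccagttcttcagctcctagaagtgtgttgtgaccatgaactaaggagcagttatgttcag
Birc6, chr17:74670091-74670291: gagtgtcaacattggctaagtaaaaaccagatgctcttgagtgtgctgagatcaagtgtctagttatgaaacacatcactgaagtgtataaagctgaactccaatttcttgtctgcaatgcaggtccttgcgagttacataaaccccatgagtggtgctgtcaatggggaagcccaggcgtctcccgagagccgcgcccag

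Windows of 3 members among the largest losses in 24 h M1 against 0 h M0 are shown because 2 of them, in Cacng4 and Cyp4x1, consist of short units repeated in tandem.
Tbc1d1, chr5:64326556-64326756: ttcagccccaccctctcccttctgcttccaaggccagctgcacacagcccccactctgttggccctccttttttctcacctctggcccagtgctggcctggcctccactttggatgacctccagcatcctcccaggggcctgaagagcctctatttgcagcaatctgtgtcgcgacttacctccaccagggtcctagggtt
Cacng4, chr11:107785079-107785279: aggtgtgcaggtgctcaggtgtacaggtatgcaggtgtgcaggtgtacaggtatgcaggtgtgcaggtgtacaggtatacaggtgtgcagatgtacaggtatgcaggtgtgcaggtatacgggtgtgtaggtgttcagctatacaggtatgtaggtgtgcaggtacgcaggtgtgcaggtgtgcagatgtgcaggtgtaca
Cyp4x1, chr4:115116186-115116386: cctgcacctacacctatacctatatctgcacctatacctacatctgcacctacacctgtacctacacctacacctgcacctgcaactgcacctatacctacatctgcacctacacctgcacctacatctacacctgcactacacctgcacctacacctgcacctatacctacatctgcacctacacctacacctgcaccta

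For M1 → M0 against 0 h M0, windows are shown of 2 members among the largest gains (D430041D05Rik, Ido2) and 2 among the largest losses (Megf11, Asb8), of which only Ido2 holds any of the letters (AP-1 and C/EBP).
D430041D05Rik, chr2:104337966-104338166: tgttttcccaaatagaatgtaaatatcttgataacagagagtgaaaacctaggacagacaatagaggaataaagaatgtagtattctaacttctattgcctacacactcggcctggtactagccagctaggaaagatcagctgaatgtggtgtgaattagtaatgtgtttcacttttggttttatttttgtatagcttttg
Ido2, chr8:24559313-24559513: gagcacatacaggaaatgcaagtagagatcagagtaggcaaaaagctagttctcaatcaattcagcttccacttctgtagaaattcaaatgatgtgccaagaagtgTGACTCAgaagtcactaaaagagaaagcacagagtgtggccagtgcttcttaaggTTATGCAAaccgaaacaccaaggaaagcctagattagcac
Megf11, chr9:64671813-64672013: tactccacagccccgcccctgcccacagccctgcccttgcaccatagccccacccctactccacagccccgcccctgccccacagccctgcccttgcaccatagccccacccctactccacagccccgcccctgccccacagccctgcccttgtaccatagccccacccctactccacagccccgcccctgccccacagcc
Asb8, chr15:98139749-98139949: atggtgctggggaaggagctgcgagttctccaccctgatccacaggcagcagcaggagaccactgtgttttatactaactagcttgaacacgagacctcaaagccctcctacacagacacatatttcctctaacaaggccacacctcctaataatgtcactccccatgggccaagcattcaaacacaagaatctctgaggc

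The first comparison asked which intronic sites differed between cells 24 h after LPS and IFN-γ and unstimulated cells at 0 h. Counts were compared over all sites with edgeR's quasi-likelihood test, and a site was called higher or lower at a Benjamini-Hochberg adjusted p under 0.05. Of the members, 45856 (84.3%) had over 10 normalised counts in at least 1 library and entered the test. Among them, 8967 (19.6%) were higher and 5886 (12.8%) lower in 24 h M1 than in 0 h M0. Over all 128287 sites tested, 17.3% were higher and 14.7% lower. The median log2 fold change of the called members was 1.25 for higher and -1.26 for lower sites, and 5719 of the higher and 3994 of the lower ones changed by over 1 on the log2 scale.

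Sites within 500 bp of a gene start went mostly the other way. Of 13925 promoter-near sites tested, 8.37% were higher and 19% lower in 24 h M1. Intergenic sites over 5 kb from any gene start were closer to the intronic ones, with 17.3% higher and 15.4% lower of 34190. Counts per site differed between the classes, with a median of 16.3 normalised counts at members and 108 at promoter-near sites. Within one range of depth, from 50 to 100 mean normalised counts, 35.6% of 5264 members were higher and 16.0% lower, beside 10.6% and 26.9% of 2160 promoter-near sites and 33.3% and 19% of 3723 intergenic sites. Over 100 mean counts, where 7266 of the promoter-near sites lay, 40.7% of 2361 members were higher and 10% lower, beside 8.55% and 9.66% of the promoter-near sites. Under 10 mean counts 8.14% of members were higher and 8.65% lower. These shares are descriptions, with no test between the classes.

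**Figure D1:**
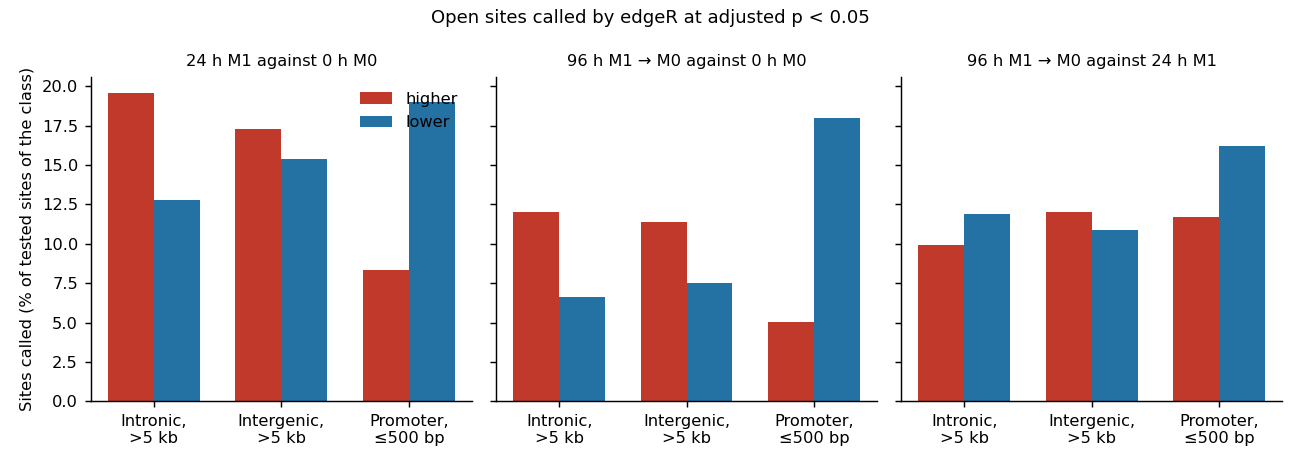
Share of tested sites called higher (red) or lower (blue) at adjusted p under 0.05 in each comparison (y axis, % of tested sites), for intronic members, intergenic sites and promoter-near sites (x axis). Members had more higher than lower calls in 24 h M1 and in M1 → M0 against 0 h M0 (19.6% and 12.8%, 12.0% and 6.63%), while promoter-near sites had more lower than higher calls (19% and 8.37%, 18.0% and 5.06%).

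The second comparison set M1 → M0 cells, 72 h after the wash, against 0 h M0 cells. Of the tested members, 5517 (12.0%) were higher and 3039 (6.63%) lower, beside 10.6% higher and 8.88% lower of all sites tested. The called changes were smaller for higher sites, with a median log2 fold change of 0.88, and 2224 of them exceeded 1. For the lower sites the median was -1.12. The count of lower members was the least stable, at 1666 without 0 h M0 replicate 1, 1914 without M1 → M0 replicate 1, 1941 without replicate 2 and 1993 without replicate 3. With DESeq2 in place of edgeR it was 1467, and the count of higher members was 2857.

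The third comparison set M1 → M0 cells against 24 h M1 cells. Here 4560 members (9.94%) were higher and 5444 (11.9%) lower, beside 10.6% and 12.3% of all sites. With libraries scaled by total counts the balance flipped, to 5186 higher and 4846 lower. It flipped also without 24 h M1 replicate 2, the deepest library of that group, to 3951 higher and 3410 lower. The 3 comparisons share libraries, and the sites called in one are therefore not independent of those called in another.

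Median levels in each library showed how the called sites stood in the third condition. The 8967 members higher in 24 h M1 had medians of 45.5, 46.1 and 41.7 normalised counts in the 24 h M1 libraries, against 18.0, 16.3 and 18.1 in the 0 h M0 libraries. In the M1 → M0 libraries, which entered the filter, scaling and spread of the model but not this contrast, these members had medians of 27.1, 27.8 and 26.6. Those M1 → M0 medians lay between the other groups and overlapped neither. The members were selected for a difference between 24 h M1 and 0 h M0, which pushes these groups apart. A place between them can follow in part from that selection. The 5886 members lower in 24 h M1 had medians of 12.3, 13.9 and 6.42 in 24 h M1, against 30.1, 29.2 and 30.1 in 0 h M0. Their M1 → M0 medians of 22.4, 22.2 and 22.2 again lay between, with the same limit. For the 5517 members higher in M1 → M0 than in 0 h M0, the medians were 50.2, 50 and 49.7 in M1 → M0, against 27.2, 24.5 and 27.8 in 0 h M0. The 24 h M1 libraries had 47.3, 49.1 and 41.7 at these members. Because the members were selected against the same 0 h M0 libraries, a 24 h M1 level above 0 h M0 can follow in part from that selection.

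**Figure D2:**
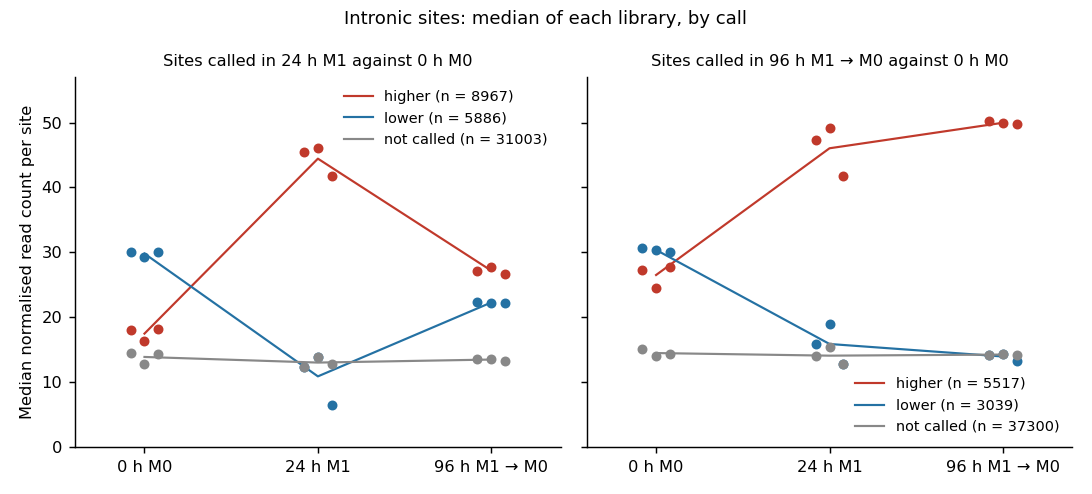
Median normalised read count per intronic site in each library (points) and the mean of the 3 library medians (lines), for members called higher, lower or not called in 24 h M1 against 0 h M0 (left) and in M1 → M0 against 0 h M0 (right). Members higher in 24 h M1 stood at 41.7 to 46.1 in 24 h M1, 26.6 to 27.8 in M1 → M0 and 16.3 to 18.1 in 0 h M0.

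As a measure over all members at once, the Jensen-Shannon distance between libraries was computed on the counts at intronic sites, after thinning each library to the 420088 counts of the shallowest. It was 0.339 on average between 24 h M1 and 0 h M0 libraries (9 pairs, 0.316 to 0.364). Within groups it was 0.248 to 0.277 among 24 h M1 libraries and 0.238 to 0.245 among 0 h M0 libraries. Between M1 → M0 and 0 h M0 it averaged 0.279 (0.273 to 0.286), above the 0.236 to 0.238 among M1 → M0 libraries and the range among 0 h M0 libraries. Between M1 → M0 and 24 h M1 it averaged 0.310. At promoter-near sites the same distances were smaller, at 0.158 for 24 h M1 and 0.129 for M1 → M0 against 0 h M0, with 0.104 on average within 0 h M0, each at 604984 counts per library. The pairs share libraries, so the ranges are a description.

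Called shares moved with distance from a gene start, in opposite directions in the comparisons of 24 h M1 and of M1 → M0 with 0 h M0. Of members 5 to 10 kb from a gene start, 20.4% of 9060 were higher in 24 h M1 and 12.3% lower, and of those over 100 kb away, 16.9% of 2685 were higher and 14% lower. In M1 → M0 against 0 h M0 higher calls were more frequent and lower calls less frequent farther away, with 10.9% higher and 7.95% lower at 5 to 10 kb, 14% and 5.34% at 50 to 100 kb, and 15.9% and 4.13% over 100 kb. First introns had 21.2% higher and 12.0% lower of 7352 in 24 h M1, and later introns 19.2% and 13.0% of 38504. At the edge of the definition, intronic sites from 5 to 5.5 kb of a start had 21.3% higher and 11.9% lower of 987, and those just outside it, from 4.5 to 5 kb, had 20.8% and 13.0% of 926.

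The letters under the sites differed with the direction of change. The AP-1 letters were in 29.1% of members higher in 24 h M1, in 7.63% of lower members and in 16.4% of those not called, beside 15.6% of all sites and 4.96% of promoter-near sites in windows of the same length. The ISRE, the element of interferon-stimulated genes, was in 8.78% of higher, 2.58% of lower and 3.34% of uncalled members, beside 3.82% of all sites. C/EBP letters were in 15.6%, 9.09% and 11.7%, beside 11.5% of all sites. In contrast the PU.1 letters were in 5.56% of higher and 9.12% of lower members, beside 7.69% of all sites, and the CTCF motif, bound by the insulator protein, was in 0.725% of higher, 8.83% of lower and 8.29% of uncalled members, beside 6.98% of all sites. RUNX letters were in 2.92% of higher and 4.2% of lower members, beside 2.79% of all sites. The remaining letters were rare, with NF-kB in 1.16% and 0.799%, GAS in 0.491% and 0.612% and the E-box in 0.792% and 0.544% of higher and lower members, beside 1.07%, 0.662% and 0.633% of all sites. Called members were read more deeply than uncalled ones, with medians of 29.9 counts for higher, 21.3 for lower and 13.2 for uncalled members, and their GC content differed, at 45.3% for higher and 49.3% for lower members. The part of depth and base composition in these shares was not tested.

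Read the other way, a member with the letters was called at a different rate. Of 8127 tested members with AP-1 letters, 32.1% were higher and 5.52% lower in 24 h M1, and of 861 with at least 2 matches, 43.7% and 3.25%. Of 1973 with an ISRE, 39.9% were higher and 7.7% lower, and of 194 with at least 2, 64.9% and 2.58%. Leaving out windows made of repeated words left 153 members with at least 2 ISRE matches, of which 66.0% were higher. Of 3156 members with the CTCF motif, 2.06% were higher and 16.5% lower, with a median log2 fold change of -0.54. The median depth was alike for members with and without AP-1 letters (16.7 and 16.2 counts) and with and without an ISRE (16.5 and 16.3), and lower with than without CTCF letters (12.8 and 16.7). It was not alike for members with at least 2 matches, at 22.0 counts for AP-1 and 12.9 for the ISRE.

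In M1 → M0 against 0 h M0, 19.7% of members with AP-1 letters were higher and 2.56% lower, and 18.8% and 3.55% of members with an ISRE, beside 12.0% and 6.63% of all members tested. With at least 2 ISRE matches, 21.6% were higher. In M1 → M0 against 24 h M1, 6.89% of members with an ISRE were higher and 24.3% lower, and 7.16% and 16.1% of members with AP-1 letters, beside 9.94% and 11.9% of all members tested. NF-kB letters, in only 448 tested members, went with 6.92% higher and 22.5% lower calls in that comparison, and with 9.6% higher and 9.82% lower calls in M1 → M0 against 0 h M0. Members with CTCF letters had 1.17% higher and 10.8% lower calls in M1 → M0 against 0 h M0.

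**Figure D3:**
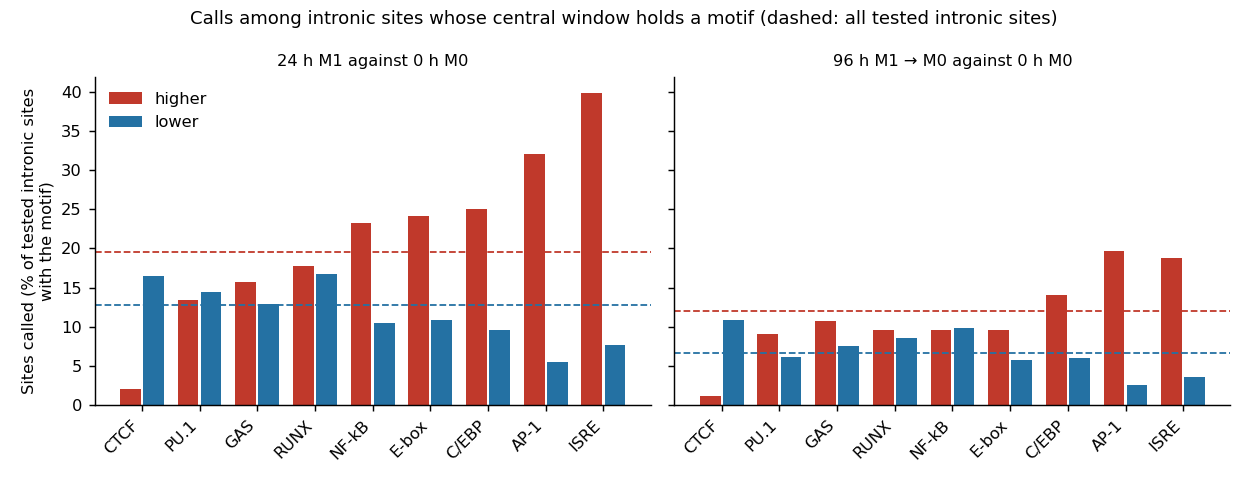
Share of tested intronic sites with a motif in the window centred on the midpoint that were called higher (red) or lower (blue), for 24 h M1 against 0 h M0 (left) and M1 → M0 against 0 h M0 (right); dashed lines give the shares over all tested members. ISRE (39.9%) and AP-1 (32.1%) lay furthest above the 19.6% line for higher calls in 24 h M1, and CTCF (2.06%) furthest below it.

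The members with the largest gains were named by a rule (at least 50 normalised counts on average in 1 group, no overlap between the libraries, largest log2 fold change), which 3623 higher and 1489 lower members met in 24 h M1. In intron 62 of Birc6, an inhibitor of apoptosis, a site at chr17:74670024-74670357 had 52.6, 66.6 and 57.8 counts in 24 h M1, against 1.16, 2.33 and 2.26 in 0 h M0 (adjusted p = 1.4e-14, edgeR). It had 3.39, 0.794 and 0.887 in M1 → M0, which overlapped 0 h M0 (adjusted p = 1.0). Since 0 h M0 held so few reads there, no fold is given. A site in intron 1 of Crkl, an adaptor of tyrosine kinase signalling, had 70.1, 63.0 and 51.3 counts in 24 h M1, against 4.64, 2.33 and 0.752 in 0 h M0. In Ubr4, a ubiquitin ligase, a site in intron 61 had 107, 104 and 77.0 counts in 24 h M1, against 3.48, 0 and 9.03 in 0 h M0. Both were still called higher in M1 → M0 than in 0 h M0, at low counts and with overlap between the libraries. Crkl had 16.3, 11.1 and 2.66 counts in M1 → M0, averaging 10.0 against 2.57 in 0 h M0 (adjusted p = 0.007, edgeR). Ubr4 had 17.6, 7.94 and 16.0 in M1 → M0, averaging 13.8 against 4.17 (adjusted p = 0.0051, edgeR). A site in intron 6 of Tmem30a, a subunit of lipid flippases, averaged 83.0 ± 12.2 counts (SD, n = 3) in 24 h M1 and 3.4 in 0 h M0, and 6.14 in M1 → M0 (adjusted p = 0.37 against 0 h M0, edgeR).

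A pair of sites within the annotated span of Olfr56 also ranked among the largest gains, with means of 339 and 230 counts in 24 h M1 and 9.57 and 7.81 in 0 h M0. They lay 5.29 and 5.18 kb from the nearest gene start, close to 9930111J21Rik2 and 9930111J21Rik1, and their central windows share a stretch of 106 bases without a difference. Reads from that stretch cannot be assigned to either copy, so their separate values are uncertain. Nos2, the inducible nitric oxide synthase, held a site in intron 13 with 33.3, 40.3 and 38.5 counts in 24 h M1, against 0, 0 and 1.5 in 0 h M0 (adjusted p = 3.9e-11, edgeR). The M1 → M0 libraries had 2.71, 2.38 and 3.55 there, above 0 h M0 in each library but not called (adjusted p = 0.094). Nos2 RNA averaged 624 FPKM in 24 h M1, 1.65 in M1 → M0 and 0.114 in 0 h M0.

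The members with the largest losses in 24 h M1 included sites made of tandem repeats. In intron 10 of Dgat2, which encodes an enzyme of triglyceride synthesis, a site had 5.25, 8.79 and 6.42 counts in 24 h M1, against 81.1, 117 and 83.5 in 0 h M0 (adjusted p = 2.3e-16, edgeR, with a log2 fold change of -3.59 ± 0.30 SE). It stayed at 12.9, 11.1 and 7.98 in M1 → M0 (log2 fold change -3.07, adjusted p = 6.6e-17). In intron 1 of Cacng4, a calcium channel subunit, the counts were 24.5, 30.8 and 28.9 in 24 h M1, against 296, 254 and 278 in 0 h M0 (adjusted p = 7.9e-27, with a log2 fold change of -3.27 ± 0.17 SE), with 46.8, 55.6 and 43.5 in M1 → M0. In Cyp4x1, a cytochrome P450, they were 3.5, 6.59 and 16.0 in 24 h M1, against 75.3, 66.5 and 63.9 in 0 h M0. All 3 were named by the rule in both comparisons with 0 h M0. Their 24 h M1 and M1 → M0 libraries therefore lay below every 0 h M0 library by selection.

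Such repeats can be read in the printed windows of Cacng4 and Cyp4x1. A window was counted as repetitive when 50% or more of its 8-base words occurred more than once in it, which held for 1172 members (2.16%). Among members meeting the rule for naming, repetitive windows made up 4 of the 8 largest losses in 24 h M1 and 5 of the 8 in M1 → M0. They made up 0 of the 8 largest gains in either comparison. Among the 100 largest changes each way under that rule, they made up 6 of the gains and 10 of the losses in 24 h M1. In M1 → M0 they made up 0 of the gains and 15 of the losses. Among all called members the shares were 1.45% of higher and 3.06% of lower sites in 24 h M1, and 0.834% and 3.92% in M1 → M0. Of 839 repetitive members tested, 15.5% were higher and 21.5% lower in 24 h M1, and 5.48% and 14.2% in M1 → M0, beside 19.6% and 12.8%, and 12.0% and 6.63%, of all members. Short reads from tandem repeats can be placed at several positions, and whether such reads were removed is not given in the sources used here. Without the repetitive windows, 8837 members were higher and 5706 lower in 24 h M1, an alternative added after the data were seen.

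Other large losses were at windows with few or no repeated words. In intron 20 of Tbc1d1, a regulator of glucose transporter traffic, a site had 8.76, 3.66 and 6.42 counts in 24 h M1, against 68.4, 59.5 and 59.4 in 0 h M0 (adjusted p = 6.2e-14, edgeR, with a log2 fold change of -3.52 ± 0.34 SE). In M1 → M0 it had 37.3, 34.1 and 39.9, below 0 h M0 (adjusted p = 0.0027) and above 24 h M1 (adjusted p = 1.4e-08). A site in intron 6 of Bnc2, a zinc finger protein, had 0, 8.06 and 6.42 counts in 24 h M1 and 25.8, 36.5 and 48.8 in M1 → M0, against 45.8, 59.5 and 49.6 in 0 h M0 (adjusted p = 0.13 for M1 → M0, edgeR). A site in intron 7 of Ccdc152, whose nearest protein-coding start was that of the selenium carrier Selenop, had 17.5, 10.3 and 12.8 counts in 24 h M1, against 85.2, 99.2 and 97.0 in 0 h M0. Selenop RNA averaged 365 FPKM in 24 h M1 and 2180 in 0 h M0 (log2 fold change -2.61 on the log2(FPKM + 1) scale, adjusted p = 4.3e-07, limma).

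**Figure D4:**
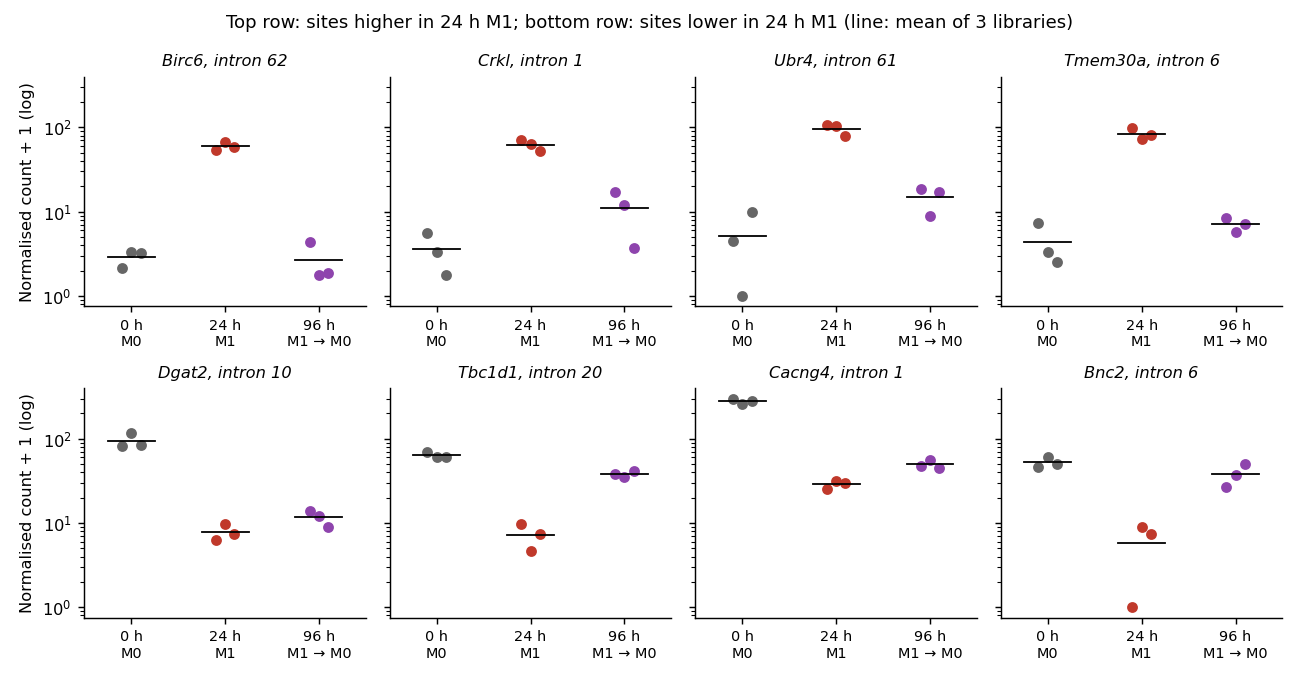
Normalised counts plus 1 (log axis) in each of the 9 libraries at 8 members, 4 higher in 24 h M1 (top) and 4 lower (bottom), by condition in order of time; lines mark the mean of 3 libraries. At Birc6 the M1 → M0 libraries (0.794 to 3.39 counts) overlapped those of 0 h M0, while at Dgat2 they stayed at 7.98 to 12.9, against 81.1 to 117 in 0 h M0.

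In M1 → M0, the largest gain over 0 h M0 was in intron 1 of the uncharacterised gene D430041D05Rik, with 74.0, 81.8 and 93.1 counts in M1 → M0, against 10.4, 9.33 and 10.5 in 0 h M0 (edgeR, adjusted p = 2.9e-17, log2 fold change 3.0). The 24 h M1 libraries had 119, 151 and 86.6 at this site. Ido2, an enzyme of tryptophan breakdown, held an intron 1 site with 52.2, 70.7 and 45.2 counts in M1 → M0, against 12.2, 10.5 and 9.78 in 0 h M0 (adjusted p = 1.9e-11). Pde4b, a cAMP phosphodiesterase, held one in intron 4 with 52.9, 64.3 and 63.0 counts in M1 → M0, against 14.5, 7.0 and 13.5 in 0 h M0. In Cpq, a peptidase, the M1 → M0 libraries had 67.2, 89.7 and 80.7, against 21.4, 10.5 and 24.8 in 0 h M0, and Cpq RNA was higher too, at 39.3 FPKM in M1 → M0 and 24.3 in 0 h M0 (adjusted p = 3.1e-05, limma). The Ido2 and Pde4b sites were also higher in 24 h M1 than in 0 h M0, with means of 85.9 and 77.8 counts in 24 h M1.

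Some members were higher in M1 → M0 without being so in 24 h M1. The site in intron 24 of Txndc16 had 38, 63.5 and 56.8 counts in M1 → M0, against 13.3, 5.83 and 14.3 in 0 h M0 (adjusted p = 5e-08, edgeR). The 24 h M1 libraries had 17.5, 17.6 and 0, and M1 → M0 was higher than these too (adjusted p = 1.1e-05). In Tox, a DNA-binding protein best known from T cells, the counts were 43.4, 48.4 and 58.5 in M1 → M0, against 15.1, 8.17 and 14.3 in 0 h M0, and 24 h M1 averaged 13.2 (adjusted p = 8.9e-07 for M1 → M0 against 24 h M1). Against 24 h M1, the largest gain among members meeting the rule for naming was at a site in intron 2 of Serpine2, a protease inhibitor. This site had 68.5, 65.1 and 59.4 counts in M1 → M0 against 5.25, 8.06 and 0 in 24 h M1. Its 0 h M0 values of 30.1, 28 and 16.5 lay below M1 → M0 (adjusted p = 2.8e-06, edgeR). The reverse held at Asb8 intron 5, where M1 → M0 had 6.78, 12.7 and 11.5 counts against 56.8, 56 and 61.7 in 0 h M0, while 24 h M1 had 42.0, 30 and 67.4 (adjusted p = 0.074 against 0 h M0, and 1.1e-06 for M1 → M0 against 24 h M1). In intron 4 of Zbtb16, a zinc finger repressor, M1 → M0 had 53.6, 71.4 and 67.4 counts against 3.5, 11 and 6.42 in 24 h M1, and again lay above the 29.6, 28 and 24.1 of 0 h M0 (adjusted p = 1.1e-05).

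Among the largest losses in M1 → M0 against 24 h M1, an intron 1 site of Gbp9, a guanylate-binding protein induced by interferon, had 5.43, 3.97 and 8.87 counts in M1 → M0, against 163, 162 and 186 in 24 h M1 (log2 fold change -4.79, adjusted p = 9.5e-28, edgeR). The 0 h M0 libraries had 11, 12.8 and 9.78 there and M1 → M0 was not called against them (adjusted p = 0.095). Gbp9 RNA averaged 9.85 FPKM in M1 → M0 and 2.64 in 0 h M0 and was called higher (adjusted p = 4.8e-08, limma).

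Many host genes held several called members. Of 832 host genes with at least 5 called members in 24 h M1 against 0 h M0, 150 had only higher sites, 41 only lower sites and 641 both. Over all tested members 19.6% were higher and 12.8% lower. Long genes led the counts. Lpp, a focal adhesion protein, had 22 higher and 5 lower of 72 tested members, and Fmnl2, a formin that builds actin filaments, 20 and 3 of 38. Slco3a1, a transporter of organic anions, had 20 higher and 2 lower of 37. Its RNA was 143, 118 and 143 FPKM in 24 h M1, against 1.5, 0.978 and 1.22 in 0 h M0 (log2 fold change 5.93 ± 0.20 on the log2(FPKM + 1) scale, adjusted p = 1.4e-49, limma). In M1 → M0, 15 of the Slco3a1 members were higher than in 0 h M0, and the RNA averaged 5.42 FPKM (adjusted p = 6.8e-10). The largest gain in Slco3a1, 26.9 kb from its start, had 117, 90.8 and 132 counts in 24 h M1, against 6.96, 12.8 and 14.3 in 0 h M0.

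The direction of sites and RNA was not always the same. Snx29 had 18 higher and 4 lower of 55 tested members, while its RNA was lower, at 10.5 ± 0.761 FPKM in 24 h M1 and 22.5 ± 4.3 in 0 h M0 (SD, n = 3 each, adjusted p = 2.7e-05, limma). Arhgap10 and Chchd6 had 17 and 15 higher members and higher RNA, and the RNA of Fat3, a protocadherin with 17 higher members, was not measured in the expression table used here. On the losing side, Pde4d, a cAMP phosphodiesterase, had 25 lower and 15 higher of 112 tested members (beside 12.8% and 19.6% of all members), Hdac9 15 and 10 of 59, Prkce 15 and 3 of 38 and Zfhx3 14 and 3 of 50. In Gpc6, a cell surface glypican, 13 of 32 tested members were lower in 24 h M1, and 2 were lower in M1 → M0. The largest loss in Gpc6, at 836 kb from the start, had 5.25, 7.32 and 6.42 counts in 24 h M1, against 47.5, 33.8 and 63.2 in 0 h M0, and 46.8, 36.5 and 31.9 in M1 → M0. Gse1 differed, with 12 lower members in 24 h M1 and 17 in M1 → M0 of 41 tested, and its RNA averaged 10.4 FPKM in 24 h M1 and 7.59 in 0 h M0 (adjusted p = 0.041, limma).

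**Figure D5:**
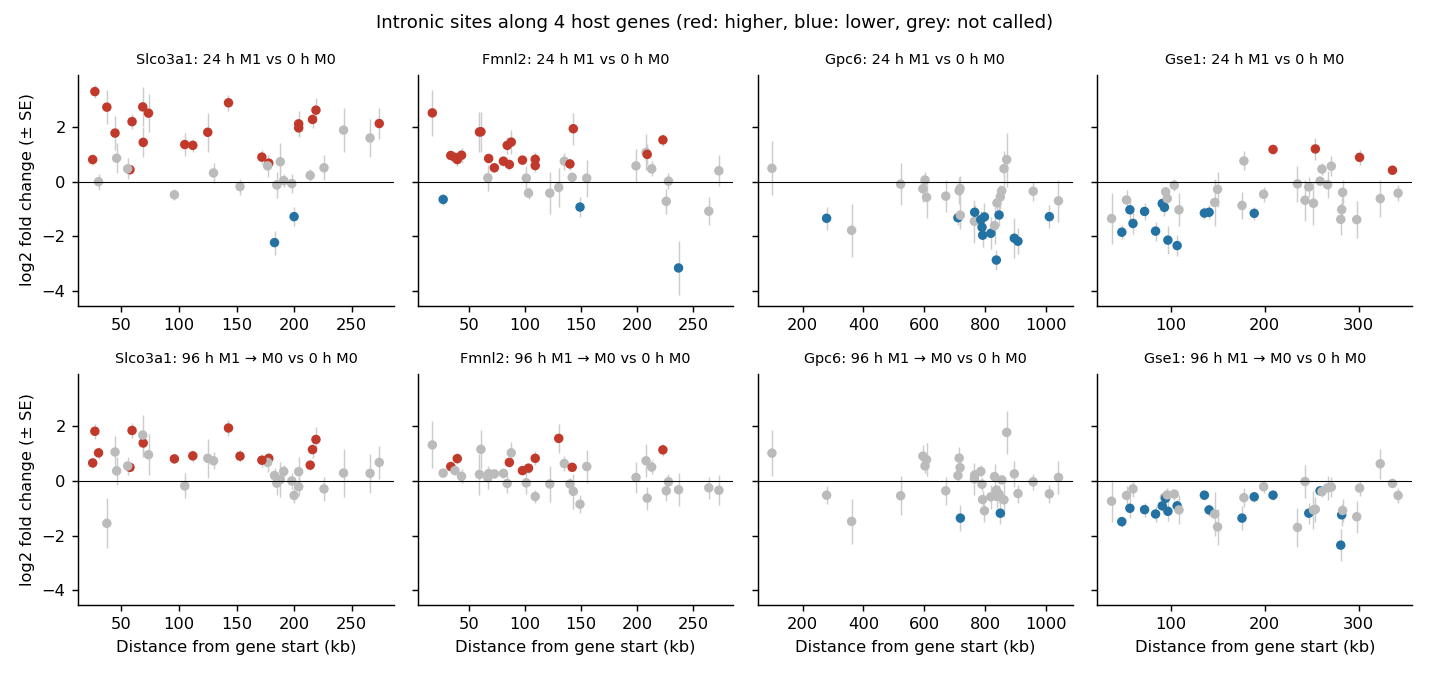
Log2 fold change with its standard error (y axis) of each tested intronic site along 4 host genes, by distance from the gene start in kb (x axis), for 24 h M1 (top) and M1 → M0 (bottom) against 0 h M0; red sites were called higher, blue lower. Slco3a1 and Fmnl2 each had 20 higher members in 24 h M1, Gpc6 had 13 lower members in 24 h M1 and 2 in M1 → M0, and Gse1 had 12 and 17.

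RNA of the host genes, from separate libraries of the same conditions, was set beside the sites. Of the 9600 host genes, 4533 were in the expression table, 166 of them under an older symbol. Over all 8307 genes of that table, 35.9% were higher and 25.2% lower in 24 h M1 than in 0 h M0. Of 1502 measured hosts with only higher members, 51.3% had higher and 15.0% lower RNA, and of 335 with 3 or more higher and no lower members, 66.6% and 8.06%. Hosts with only lower members were measured less often, at 529 of 1652, beside 1502 of 2377 with only higher members. Of these 529, 22.3% had higher and 38.0% lower RNA, and of 53 measured with 3 or more, 13.2% and 52.8%. Measured hosts with members in both directions (859) had 37.0% higher and 28.4% lower RNA, and measured hosts with no called member (1643) 34.3% and 23.8%.

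In M1 → M0 against 0 h M0, 14.0% of all genes had higher and 8.39% lower RNA. Of 1142 measured hosts with only higher members, 22.9% had higher and 3.24% lower RNA, and of 667 measured hosts with only lower members, 9.15% and 14.4%. With the RNA fitted on the 2 groups alone, 161 rather than 261 hosts with only higher members had higher RNA. Most measured hosts of changed members had no called RNA change in this comparison, at 844 of 1142 and 510 of 667. The same held for 6451 of 8307 genes over the whole expression table.

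The members were also read by gene lists, which were chosen with earlier results of these data known, beside the 17.3% higher and 14.7% lower calls and the median log2 fold change of -0.06 over all sites in 24 h M1. In the interferon and JAK-STAT list, 24 of 36 genes held 111 members, of which 57 of 108 tested (52.8%) were higher in 24 h M1 and 0 lower by edgeR, with a median log2 fold change of 0.76. At an unadjusted p under 0.05, 4 were lower, and DESeq2 called 44 higher and 0 lower. In M1 → M0, 16 were higher and 6 lower than in 0 h M0, beside 10.6% and 8.88% of all sites. Against 24 h M1, 2 were higher and 47 lower, beside 10.6% and 12.3% of all sites. In intron 2 of Rnf213, an interferon-induced ubiquitin ligase, a site had 36.8, 45.4 and 51.3 counts in 24 h M1, against 1.74, 3.5 and 4.51 in 0 h M0. Il15, a cytokine for NK and T cells, had an intron 4 site with 52.6, 53.5 and 57.8 counts in 24 h M1, against 5.8, 2.33 and 4.51 in 0 h M0, and 12.9, 11.1 and 4.43 in M1 → M0. The RNA of both was higher in 24 h M1, at 421 and 67.9 FPKM, against 17.5 and 7.12 in 0 h M0.

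In the list of NF-kB and Toll-like receptor signalling, 35 of 121 tested members in 20 host genes were higher and 10 lower in 24 h M1, and 15 and 6 in M1 → M0 against 0 h M0, where 10.6% and 8.88% of all sites were called. Beside Nos2, higher members lay in Traf1, Tnip1 and Irak3, an adaptor and a pair of inhibitors of the pathway. The Irak3 site had 56.1, 44.7 and 32.1 counts in 24 h M1, against 2.32, 4.67 and 5.27 in 0 h M0, while Irak3 RNA was not called (9.58 FPKM in 24 h M1 and 10.8 in 0 h M0, adjusted p = 0.64, limma). In the list of AP-1 and stress kinase genes, 24 of 97 were higher and 10 lower. Bach2, a repressor of AP-1 sites, held members in both directions. A lower one in intron 3 had 0, 5.13 and 3.21 counts in 24 h M1, against 16.8, 18.7 and 18.1 in 0 h M0, and a higher one, at a repetitive window, had 21, 24.2 and 12.8 in 24 h M1, against 5.8, 1.17 and 4.51 in 0 h M0.

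The list of macrophage lineage factors and receptors held the most members, 679 in 38 host genes. Of 624 tested, 126 (20.2%) were higher and 72 (11.5%) lower in 24 h M1, close to the shares over all members. In the metabolism and transport list, 25 of 97 were higher and 10 lower. Slc7a2, which carries arginine into the cell, had an intron 3 site with 92.8, 98.9 and 106 counts in 24 h M1, against 13.9, 5.83 and 3.76 in 0 h M0 (adjusted p = 1.0e-17, edgeR, with a log2 fold change of 3.50 ± 0.27 SE). Slc28a2, a nucleoside transporter, had an intron 7 site with 124, 125 and 157 against 8.11, 15.2 and 16.5. Both RNAs were higher, at 30 and 66.6 FPKM in 24 h M1, against 2.0 and 4.65 in 0 h M0. In Pfkfb3, a driver of glycolysis, which held both higher and lower members, an intron 1 site had 5.25, 4.39 and 0 counts in 24 h M1, against 27.2, 25.7 and 27.8 in 0 h M0, while Pfkfb3 RNA averaged 118 FPKM in 24 h M1 and 8.81 in 0 h M0. Of 84 members in genes of the IL-4, PPAR and LXR pathways, 19 were higher and 6 lower. The cholesterol exporter Abca1 also held members in both directions. Its intron 5 site had 47.3, 40.3 and 41.7 counts in 24 h M1, against 15.6, 11.7 and 10.5 in 0 h M0, while its RNA was lower (15.0 against 35.7 FPKM, adjusted p = 2.1e-06, limma). In the cell cycle list, 13 of 88 were higher and 15 lower.

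Lists of genes of other cell types were read against the same shares over all sites (17.3% higher and 14.7% lower in 24 h M1), and differed among themselves. In the T and NK cell list, 8 of 22 tested members were lower and 0 higher (1 higher at an unadjusted p under 0.05, and 0 with DESeq2), with a median log2 fold change of -0.93. Lower sites in Skap1, Lef1, Themis and Gata3 held few counts, averaging 8.31, 21.4, 8.8 and 9.9 in 0 h M0. Each had 0 in 24 h M1 replicate 3, the shallowest library. In the mast and erythroid list, 3 of 5 were lower and 0 higher (0 at an unadjusted p under 0.05 and 0 with DESeq2), in the dendritic cell list 15 of 45 were lower and 4 higher, and in the fibroblast and endothelial list 4 of 28 were lower and 1 higher. The B cell list had 13 higher and 12 lower of 93, mainly in Foxp1 and Bank1, and the osteoclast and cell fusion list 3 and 2 of 24. In the neutrophil list 1 of 8 was lower, a site in Mmp9, and 0 were higher (0 at an unadjusted p under 0.05 and 0 with DESeq2). An intron 1 site of Kit, the stem cell factor receptor, had 26.3, 18.3 and 6.42 counts in 24 h M1, against 32.5, 52.5 and 39.9 in 0 h M0, and 63.8, 50 and 57.6 in M1 → M0. In the RNA libraries, the summed level of 8 neutrophil markers was 20.7 to 40 FPKM in 24 h M1, against 952 to 2700 in 0 h M0, and 4.26 to 11.9 in M1 → M0. Elane was listed at 0 in 24 h M1, against a mean of 42.1 FPKM in 0 h M0. The sum of 8 macrophage markers was 6100 to 7670 FPKM in 24 h M1, against 9880 to 11000 in 0 h M0. Lyz2 made up most of that sum in 0 h M0, at a mean of 7820 FPKM, against 3410 in 24 h M1. The means of Csf1r and Cd68 were lower in 24 h M1 too. Those of Adgre1, Itgam, Fcgr1, Mertk and Spi1 were higher, with Adgre1 at 993 FPKM in 24 h M1 and 396 in 0 h M0. The 6 B cell and 5 T cell markers were not measured in the expression table used here. In bulk libraries fewer cells of a type and a lower signal per cell cannot be told apart, and the part of other cells in the lower sites was not tested.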

How the data were processed

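ATAC-seq libraries of 9 samples and bulk RNA-seq libraries of the same conditions were used. For the ATAC data the authors aligned reads to mm10 with TopHat 2.0.14, removed PCR duplicates with Samtools 1.9, called peaks once on all libraries merged with MACS 2.1.0 and deposited raw counts of reads per library and peak from Bedtools 2.28.0. Because peaks were called on the pool, a site is listed in every library. For RNA the authors deposited log10(FPKM + 1) values from Cuffnorm 2.2.2 for genes with at least 10 FPKM in a library, which were turned back to FPKM and tested as log2(FPKM + 1). Single-cell files were not used here. Bulk RNA libraries of other times and stimuli entered the RNA fit, 1 mean per condition, and only its estimate of the spread.

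Site midpoints were placed on GENCODE M21, whose assembly (GRCm38.p6) holds every site within its chromosome ends; 248 sites on other sequences were not placed. Introns were numbered from the gene start over the union of all exons. Counts were scaled by TMM (normalised counts are scaled to the geometric mean library), sites with over 10 normalised counts in at least 1 library were kept, and 1 edgeR 4.0.16 quasi-likelihood model over all 9 libraries gave the comparisons (R 4.3.3). RNA was fitted with limma 3.58.1. The edgeR and limma fits were tested on simulated data. In simulated ATAC counts, edgeR found 34 of 100 log2 changes of 1 and 77 of 100 of 2, with 4 false calls. At sites with a mean of at least 20 counts it found 63.6% and 93.9%. Only those few sites were changed among 120448 tested, and every site was drawn with the same dispersion. In the real data 32.0% of sites were called in 24 h M1 against 0 h M0. The simulated shares and false calls therefore do not carry over to the real fit. P-values were adjusted over all sites or genes. Named sites were the 8 largest changes each way per comparison among called members with a mean of at least 50 counts in 1 group and no overlap between libraries, up to 4 called members per gene list, and the 8 host genes with the most higher and the most lower members, without predicted genes; the text gives part of them. Some items are not reported here. Members, lists and tests were chosen with earlier results of these data known.

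The alternatives were DESeq2 1.42.0 as the test, its size factors or total counts as scaling, other filters, fits on the groups compared only, a replicate block, each library left out in turn, a limit of 10 kb, and starts of all transcripts; for RNA, other pseudocounts and filters, and the gene with the nearest start. Deviations of same-numbered ATAC libraries were not correlated (between -0.025 and 0.022). Counting noise at low counts weakens such correlations, so they cannot show whether the ATAC libraries were paired. The same correlations for RNA libraries were 0.134 to 0.493 for 24 h M1 and -0.122 to 0.225 for M1 → M0. Libraries of a group differed by more than counting noise (chi-square per degree of freedom 1.36 to 1.98 over all sites). Depth limits what was called: 8525 members were too low to test.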

Additional observations from a re-analysis of the deposited data

How the results depend on the processing

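For 24 h M1 against 0 h M0, the counts of higher and lower members stayed within 1.5 times of 8967 and 5886 under every alternative run (6662 and 4266 with DESeq2, 8439 and 6598 with DESeq2's size factors). Leaving out each library gave 6400 to 8900 higher and 4160 to 5876 lower. For M1 → M0 against 0 h M0, DESeq2 called 2857 higher and 1467 lower, and leaving out each library gave 3830 to 6268 and 1666 to 3886. For M1 → M0 against 24 h M1, DESeq2 called 2979 higher and 3524 lower, and leaving out each library gave 3363 to 4764 and 3410 to 5495, and scaling by total counts gave 5186 higher and 4846 lower. For these differences the cause was not tested. Other scalings moved the median log2 fold change of all sites from -0.06 to -0.12 at most in 24 h M1.

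With a replicate block the counts were 8002 and 5125, 4899 and 2530, and 4034 and 4601 in the 3 comparisons. Whether the replicate numbers pair the ATAC libraries could not be judged. For RNA the block gave 825 hosts with only higher members and higher RNA in 24 h M1, in place of 770, and 341 in M1 → M0, in place of 261, where a fit on the 2 groups alone gave 161. Leaving out each RNA library gave 723 to 758 and 180 to 197 hosts in 24 h M1, and 203 to 231 and 66 to 93 in M1 → M0. Under 10 mean counts 8.14% of 14057 members were higher and 8.65% lower in 24 h M1, beside 19.6% and 12.8% of all members tested; smaller changes at such sites may not be detectable at this depth.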
